A study of Mus musculus with 18 samples.

Results

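The Hox genes encode homeodomain transcription factors and lie in 4 clusters, Hoxa, Hoxb, Hoxc and Hoxd. All probe sets on a mouse whole-transcript array whose symbol is Hoxa, Hoxb, Hoxc or Hoxd followed by a number were taken, which gave 39 genes: 11 in Hoxa, 10 in Hoxb, 9 in Hoxc and 9 in Hoxd. Where a gene had several transcript clusters, as the array calls its gene-level probe sets, the one with the highest mean signal was used. Hoxd3 and Hoxd4 share that cluster, so the 39 genes are read through 38 of the 28856 transcript clusters, of which 25254 carry a gene symbol.

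Glomeruli of 5-week-old mice were dissociated and GFP positive cells were collected by FACS, with the Meis1-GFP transgene for mesangial cells, Tie2-GFP for endothelial cells and another GFP reporter for podocytes. Each cell type was profiled in Cd2ap-/- mutants (B6.129X1-Cd2ap tm1Shaw/J), a model of focal segmental glomerulosclerosis, and in controls, called wild type here. There were 3 arrays in each of the 6 groups and 18 arrays in all. The titles of the 3 control mesangial samples say control, and their file columns carry the mark "+:-". For these controls wild type is used here only as a group name. The control podocyte and endothelial columns carry a mark with a plus on both sides. In the wild type comparisons with mesangial cells, cell type and this mark therefore cannot be told apart. Each cell type had its own reporter, so reporter and cell type cannot be told apart, and the arrays of a group are named A, B and C as names only. The series describes biological triplicates, and p-values measure the spread between these arrays.

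Hox proteins give cells their position along the body axis, and during development the genes of a cluster are switched on in the order of their paralog number, low numbers first and toward the head, high numbers later and toward the tail. They bind DNA together with the TALE homeodomain proteins of the Pbx, Meis and Pknox families. In the kidney the paralog group 11 genes act with Eya1 in the metanephric mesenchyme, and the paralog group 10 genes act in its stroma, the tissue that gives rise to mesangial cells.

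The promoter windows of 4 members, 1 from each cluster, are printed here 5′ to 3′ on the gene's own strand, from RefSeq on build GRCm38.p6, with 250 bases before and 50 bases after the start site. They were limited to genes with a matched window, and Hoxc6, Hoxc8, Hoxc9, Hoxc10 and Hoxb5 had none. Hoxc4, Hoxd10 and Hoxa11 were lower in endothelial than in mesangial cells, and Hoxb4 was higher in endothelial cells than in podocytes. Capitals mark AGGTCA on either strand, written TGACCT on the other, the core motif of retinoic acid and other nuclear receptors.
Hoxc4, chr15:103034145-103034444, plus strand: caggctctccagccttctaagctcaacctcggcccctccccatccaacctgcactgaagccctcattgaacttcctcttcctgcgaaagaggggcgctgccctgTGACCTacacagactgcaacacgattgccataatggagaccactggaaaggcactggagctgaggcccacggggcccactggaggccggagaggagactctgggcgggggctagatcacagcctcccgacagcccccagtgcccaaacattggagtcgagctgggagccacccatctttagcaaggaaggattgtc
Hoxd10, chr2:74691641-74691940, plus strand: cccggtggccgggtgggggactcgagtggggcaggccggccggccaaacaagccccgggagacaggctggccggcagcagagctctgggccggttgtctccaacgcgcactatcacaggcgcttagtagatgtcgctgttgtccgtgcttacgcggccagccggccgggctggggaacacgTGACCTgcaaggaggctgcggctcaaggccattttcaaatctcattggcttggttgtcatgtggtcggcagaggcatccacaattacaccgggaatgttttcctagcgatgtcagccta
Hoxa11, chr6:52245761-52246060, minus strand: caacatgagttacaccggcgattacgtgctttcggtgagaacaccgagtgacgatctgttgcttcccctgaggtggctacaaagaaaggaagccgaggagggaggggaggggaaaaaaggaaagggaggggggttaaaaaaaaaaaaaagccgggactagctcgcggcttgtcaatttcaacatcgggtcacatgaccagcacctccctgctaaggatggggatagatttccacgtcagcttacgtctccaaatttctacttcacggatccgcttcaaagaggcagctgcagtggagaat
Hoxb4, chr11:96318017-96318316, plus strand: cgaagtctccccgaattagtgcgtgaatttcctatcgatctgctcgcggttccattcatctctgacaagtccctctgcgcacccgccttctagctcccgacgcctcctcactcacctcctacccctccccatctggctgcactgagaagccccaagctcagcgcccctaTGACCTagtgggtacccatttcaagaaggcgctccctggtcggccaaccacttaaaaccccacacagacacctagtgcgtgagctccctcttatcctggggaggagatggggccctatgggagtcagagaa
Hoxc4, Hoxd10 and Hoxb4 each held 1 match and Hoxa11 held 0. RefSeq windows were matched for 22 of the 39 Hox genes, 24 windows in all, and 7 of the 24 (29.2%) held AGGTCA on either strand, against 16.3% of all 32851 windows. The Pbx-Hox motif TGATTNAT was in 2 of the 24, those of Hoxa2 and of Hoxd11, against 3.22% of all windows, and TAATTA, the homeodomain core, was in 2, both of Hoxd11, against 5.29%. These are letter matches in short windows and are not binding sites shown by these data.

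The labelled cell types carried their defining markers. The podocyte gene Nphs1 was between 1034 and 1298 in podocyte arrays, Kdr and Cdh5 between 2186 and 3043 in endothelial arrays, and Pdgfrb and Itga8 between 988 and 3126 in mesangial arrays. Other cells were present to differing degrees. The summed signal of 10 mesangial markers was 837 to 1198 in endothelial arrays, 3855 to 4804 in wild type podocyte arrays and 1370 to 3664 in mutant podocyte arrays, against 8641 to 12286 in mesangial arrays. Wild type mesangial array C stood apart, with Nphs1 at 168 and Kdr at 935, where the other 5 mesangial arrays had at most 61.1 and 153, so the main differences that involve it are also given without it. Cd2ap itself was 1512, 1503 and 1478 in mutant and 2108, 1670 and 1546 in wild type podocyte arrays, 819, 870.4 and 797 against 922, 1037 and 1123 in mesangial arrays and 891, 966 and 920.4 against 839.8, 858 and 757 in endothelial arrays. The mutants thus lay below in podocytes and mesangial cells and above in endothelial cells, without overlap and with signal in every mutant array, so the genotype rests on the labels. In bulk samples such as these, fewer cells of a type and less RNA per cell cannot be told apart.

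Signals below are RMA values on a linear scale, and 100 is the minimum signal that the study's methods required. By that measure mesangial cells and podocytes held much the same Hox genes and endothelial cells fewer. At least 100 in all 3 arrays of a group was reached by 18 of the 38 members in wild type and 20 in mutant mesangial cells, by 19 and 18 in podocytes, and by 9 and 10 in endothelial cells. Mesangial cells and podocytes shared 17 of these in each genotype, and the wild type sets differed by Hoxa11 in mesangial cells and Hoxb1 and Hoxc8 in podocytes. For the Hoxc cluster the counts were 3 and 4 of 9 in mesangial cells, 4 and 4 in podocytes, and 0 and 0 in endothelial cells, where no array reached 100 for any Hoxc gene. For Hoxd they were 4 of 8 in every mesangial and podocyte group, against 0 in wild type and 1 in mutant endothelial cells, the 1 being Hoxd8. Hoxb had 5 or 6 of 10 in every group, endothelial cells included, and Hoxa had 5 or 6 of 11 in mesangial cells and podocytes and 3 of 11 in endothelial cells.

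**Figure D1:**
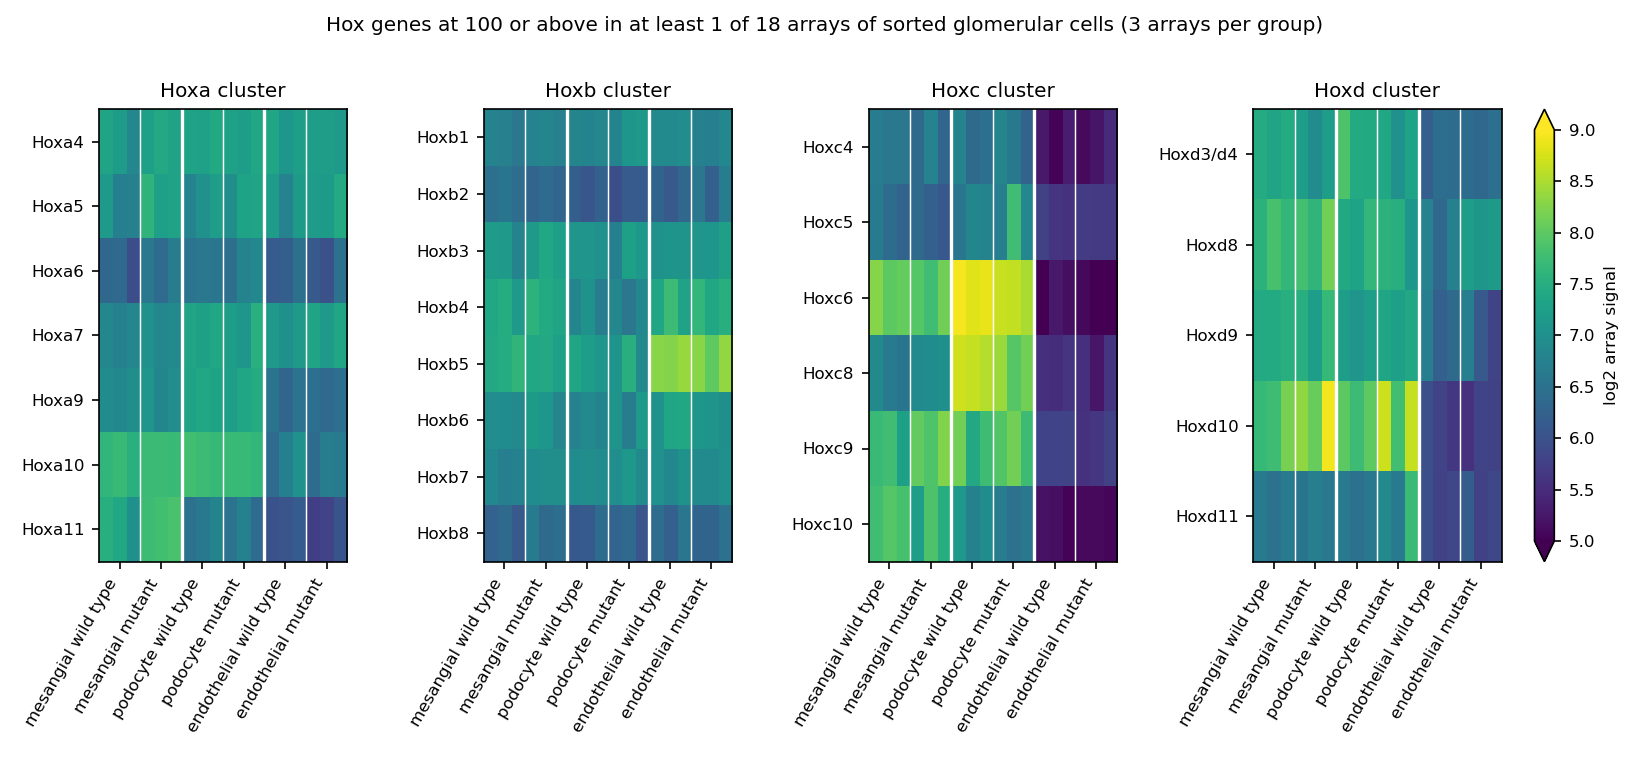
Log2 array signal (colour) of the 26 Hox transcript clusters that reached 100 in at least 1 of the 18 arrays, one panel for each Hox cluster with genes in paralog order from top to bottom and 3 arrays per group from left to right. Colours are clipped at log2 signals of 5 and 9. The 6 endothelial columns are dark for the whole Hoxc panel and most of the Hoxd panel, while Hoxb5 is brighter there than in the other columns.

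At the extremes, 7 of the 38 members stayed at 100 or above in all 18 arrays, and 12 were under 100 in all 18. Of the low members, Hoxa13, Hoxb13, Hoxc11, Hoxc12, Hoxc13, Hoxd12 and Hoxd13 lay at the high end of their clusters, and Hoxa2, Hoxa3 and Hoxd1 toward the low end. The paralog group 13 genes, which pattern the most posterior trunk and the digits, spanned 35.9 to 53 for Hoxa13, 45.4 to 63 for Hoxb13, 38.4 to 51.6 for Hoxc13 and 48.8 to 76.8 for Hoxd13. Hoxc11 was 26.8 to 31.8. Hoxb2 and Hoxb8 reached 100 in single arrays, with ranges of 62.5 to 102 and 66.7 to 101, and Hoxb8 was read on a cluster that also carries the name Hoxb7.

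Endothelial cells were set against mesangial cells first. Of the 38 members, 23 reached 100 in at least 1 of the 9 wild type arrays and entered the limma fit, and 11 of the 23 did so with no endothelial array at 100, so their entry favoured a difference. In the wild type arrays 13 members were lower in endothelial cells at a Benjamini-Hochberg adjusted p under 0.05 and a fold over 1.5, where 9.58% of the 12537 transcript clusters tested were, and 1 was higher, where 7.91% were. In the mutant arrays, which share no array with the wild type ones, 26 members entered, 13 of them with no endothelial array at 100, and 11 were lower and 1 higher, against 7.11% and 10.2% of 13063. The 11 lower and the 1 higher were among those called in wild type arrays, and Hoxc5 and Hoxd11 were called lower in wild type arrays alone. With no signal minimum, so that all 38 members and all 28856 transcript clusters were read, the calls in wild type arrays were again 13 lower and 1 higher. The median log2 difference was then -1.13 over the 9 Hoxc genes, -0.88 over the 8 Hoxd clusters, 0.02 over the 11 Hoxa and 0.14 over the 10 Hoxb genes, beside 0.04 over all transcript clusters. In mutant arrays these medians were -1.22, -0.68, -0.27 and -0.01 in the same order, beside -0.01, and 29 of the 38 members were below 0 where 19 were in wild type arrays.

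The Hoxc cluster showed the widest gap. Hoxc6, which is used in the lower neck and thorax of the embryo, was 310.1, 254 and 266 in wild type and 247, 219 and 282 in mutant mesangial arrays, 495, 445 and 466 and 406, 395 and 362 in wild type and mutant podocyte arrays, and 27.8, 38.8 and 35.5 and 34.1, 31.5 and 28.9 in wild type and mutant endothelial arrays. The 3 cell types did not overlap, with podocytes high, mesangial cells between and endothelial cells low. The endothelial minus mesangial log2 difference was -3.03 (SE 0.13, limma adjusted p = 2.32e-07) in wild type and -2.98 (SE 0.12, adjusted p = 4.57e-07) in mutant arrays. The values come with no detection call, and no endothelial array reached the minimum of 100 for Hoxc6 or Hoxc10. Fitted differences against a group whose arrays are all under the minimum are therefore differences in signal and do not measure the fold in RNA. With the endothelial level taken as the minimum of 100, mesangial Hoxc6 was at least 2.76-fold higher in wild type and 2.48-fold higher in mutant arrays, Hoxc10 at least 2.31-fold and 1.86-fold, Hoxc9 1.92-fold and 2.67-fold (wild type first). Mesangial Hoxc4 and Hoxc5 have no such bound, since their means were under 100 too.

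Hoxc10, a regulator of lumbar and hind limb identity, was 218, 247 and 229 in wild type and 152, 236 and 179 in mutant mesangial arrays, 140, 108 and 124 and 102, 90.3 and 97.4 in podocyte arrays, and 36.7, 35.9 and 32.8 and 34.2, 34.2 and 33.3 in endothelial arrays. Here mesangial cells were high and podocytes between, again with no overlap. The endothelial minus mesangial difference was -2.72 (SE 0.11, adjusted p = 1.37e-07) in wild type and -2.46 (SE 0.15, adjusted p = 2.57e-06) in mutant arrays. Hoxc9, which holds thoracic identity in the spinal cord and body wall, was 209, 219 and 154 and 263, 238 and 303 in wild type and mutant mesangial arrays, 284, 171 and 216 and 242, 283 and 213 in podocyte arrays, and 55.7, 56.2 and 56.4 and 47.7, 49.7 and 55.5 in endothelial arrays. Mesangial cells and podocytes overlapped while all 6 endothelial arrays lay under 57, with differences of -1.77 (adjusted p = 8.69e-05) and -2.39 (adjusted p = 1.81e-06).

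Hoxc8, a thoracic patterning gene, was 119, 100.4 and 94.1 and 120.3, 123 and 128 in wild type and mutant mesangial arrays, 417, 402 and 376.8 and 339, 246 and 283 in podocyte arrays, and 47.2, 45.8 and 49.3 and 47, 37.8 and 48.7 in endothelial arrays. Podocytes stood above the rest and endothelial cells below, and the endothelial minus mesangial difference was -1.13 (adjusted p = 3.28e-05) and -1.48 (adjusted p = 4.71e-05). Hoxc4 and Hoxc5, which pattern the neck and upper thorax, sat near the minimum even where they were higher. Hoxc4 was 79.3 to 109 over the 6 mesangial, 77.1 to 112 over the 6 podocyte and 32.8 to 44.3 over the 6 endothelial arrays, and the difference from mesangial cells was -1.42 in wild type and -1.22 in mutant arrays. Hoxc5 was 68.3 to 100.2, 95.1 to 219 and 48 to 54.7 in the same order, with a difference of -0.79 (adjusted p = 8.05e-04) in wild type arrays, and of -0.55 (adjusted p = 0.135) in mutant arrays, where the fold was 1.47. When all 3 arrays of a group had to reach 100, the calls of Hoxc4 in both genotypes and of Hoxc5 in wild type arrays were lost.

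**Figure D2:**
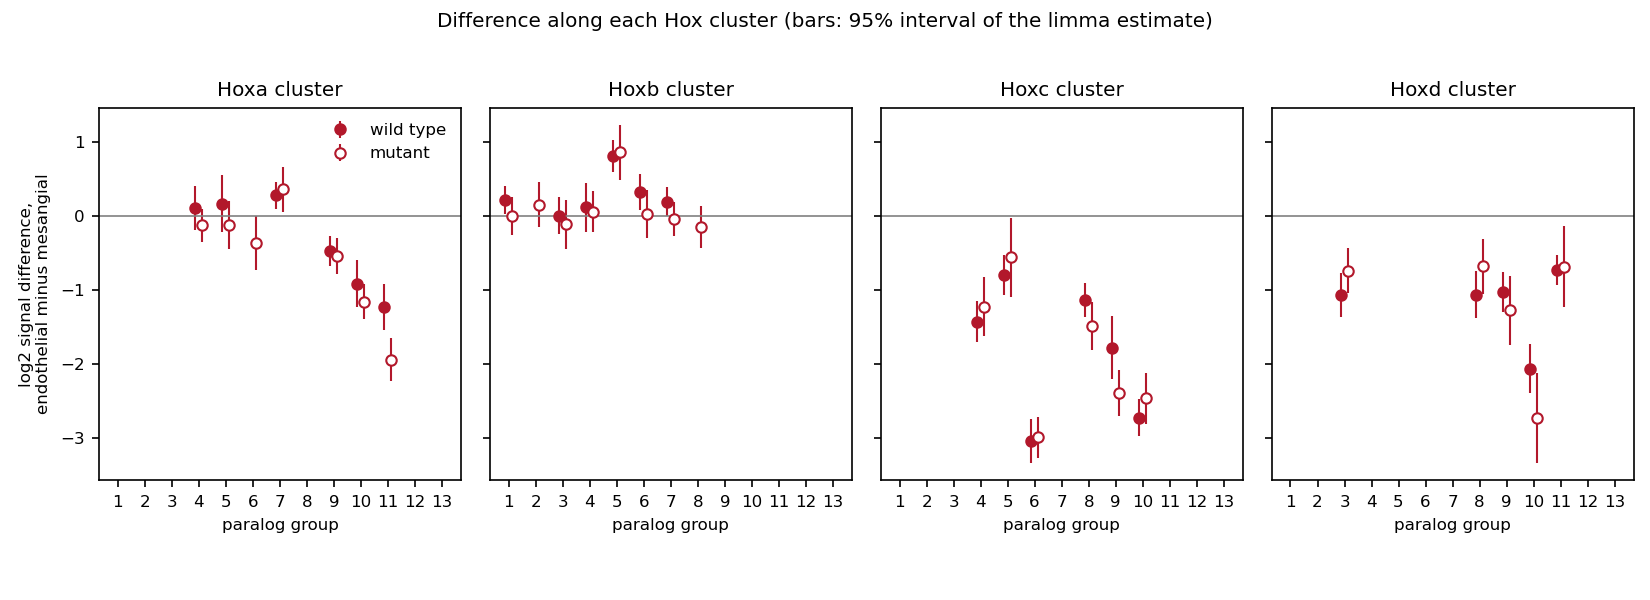
Log2 signal difference, endothelial minus mesangial (vertical axis), of each Hox member that entered the fit against its paralog group (horizontal axis), in wild type (filled) and mutant arrays (open), with 95% intervals of the limma estimate. Hoxc and Hoxd points lie below 0 in both genotypes, Hoxb points lie near 0 except Hoxb5 at 0.81 and 0.87, and in Hoxa the points at paralog groups 9 to 11 lie below those at 4 to 7.

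Within Hoxd the 5 clusters that entered the fit were all lower in wild type endothelial cells. Hoxd10, which acts in limb and spinal motor neuron patterning, was 206, 217 and 289 and 323, 269 and 486 in wild type and mutant mesangial arrays, 253, 214 and 256 and 413, 221 and 403 in podocyte arrays, and 62.8, 56.7 and 50.2 and 47.3, 56.3 and 55 in endothelial arrays. Mesangial and podocyte arrays overlapped and varied widely among mutants, and every endothelial array was under 63. The difference was -2.06 (SE 0.15, adjusted p = 6.60e-06) in wild type and -2.72 (SE 0.27, adjusted p = 4.94e-05) in mutant arrays.

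Hoxd8 was 190.4, 227 and 202 and 224, 196 and 285 in wild type and mutant mesangial arrays, 173, 159 and 201 and 189.7, 181 and 138 in podocyte arrays, and 109, 81.7 and 108 and 152, 139 and 146 in endothelial arrays. It was lower in endothelial than in mesangial cells in both genotypes, by a log2 difference of -1.06 (adjusted p = 3.59e-04) in wild type and -0.68 (adjusted p = 0.0144) in mutant arrays. The mutant call was lost without endothelial mutant array B (-0.65) and without mesangial mutant array C (-0.53). Hoxd9, which with its neighbours patterns the limb and the lower spine, had means of 177 ± 4.76 in wild type mesangial, 146 ± 8.21 in podocyte and 87.7 ± 15.3 in endothelial arrays (SD, n = 3), with differences of -1.02 (adjusted p = 1.82e-04) and, in mutants, -1.27 (adjusted p = 0.00147).

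Hoxd11, a partner of Hoxa11 in the developing kidney and forearm, was 90.3 to 105 over the mesangial and 55.1 to 72.6 over the endothelial arrays, with a difference of -0.73 (adjusted p = 2.66e-04) in wild type arrays. Only wild type mesangial array C, at 102, carried it past the minimum in the wild type fit, so that without this array it was not tested. In mutants the difference was -0.68 (adjusted p = 0.0768), and it was called with all 18 arrays in 1 fit (adjusted p = 0.0147). The cluster shared by Hoxd3 and Hoxd4, genes of the upper neck vertebrae, was 171 ± 8.46 in wild type mesangial, 194 ± 36.2 in podocyte and 82.2 ± 7.59 in endothelial arrays (SD, n = 3), with differences of -1.06 (adjusted p = 2.67e-04) and, in mutants, -0.74 (adjusted p = 0.00301). A second cluster named Hoxd3 alone stayed between 39.6 and 58.3 in all 18 arrays, so the signal of the shared one cannot be assigned to either gene.

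In the Hoxa cluster only Hoxa10 and Hoxa11 were called lower in endothelial than in mesangial cells, in both genotypes. Hoxa11, needed with its paralogs for the metanephric kidney to form, was 182, 167 and 128 and 213, 222 and 229.9 in wild type and mutant mesangial arrays, 90.3, 98.1 and 111 and 91.9, 109 and 84 in podocyte arrays, and 64.4, 66.5 and 72 and 53.3, 55.8 and 65.5 in endothelial arrays. The mesangial arrays were high and did not overlap the others, and the endothelial arrays were low. The endothelial minus mesangial difference was -1.22 (SE 0.14, adjusted p = 1.37e-04) in wild type and -1.94 (SE 0.13, adjusted p = 3.72e-06) in mutant arrays.

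Hoxa10, which patterns the lumbar spine and the uterus, was 199, 208 and 187 and 212, 213 and 209 in wild type and mutant mesangial arrays, 221, 214 and 205 and 208, 207 and 201 in podocyte arrays, and 84.4, 106 and 130.5 and 84.4, 102 and 99.4 in endothelial arrays. Mesangial cells and podocytes overlapped, and both lay above every endothelial array, with differences of -0.91 (adjusted p = 0.00102) and -1.15 (adjusted p = 2.96e-05). Hoxa9, known from blood progenitors and leukaemia, fell short of the fold minimum at -0.47 (adjusted p = 0.00371) and -0.54 (adjusted p = 0.00542). Hoxa7 had a positive difference of 0.28 (adjusted p = 0.0256) in wild type arrays, under the fold minimum. Hoxa4 and Hoxa5 were above 100 in all 18 arrays, at 115 to 173 and 106 to 194, with wild type differences of 0.11 (95% interval -0.18 to 0.41) and 0.17 (-0.21 to 0.55). In mutants, mesangial and endothelial means were 160 and 147 for Hoxa4 and 168 and 155 for Hoxa5. They were 94.8 and 74.2 for Hoxa6 and 121 and 156 for Hoxa7, and none of these was called.

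**Figure D3:**
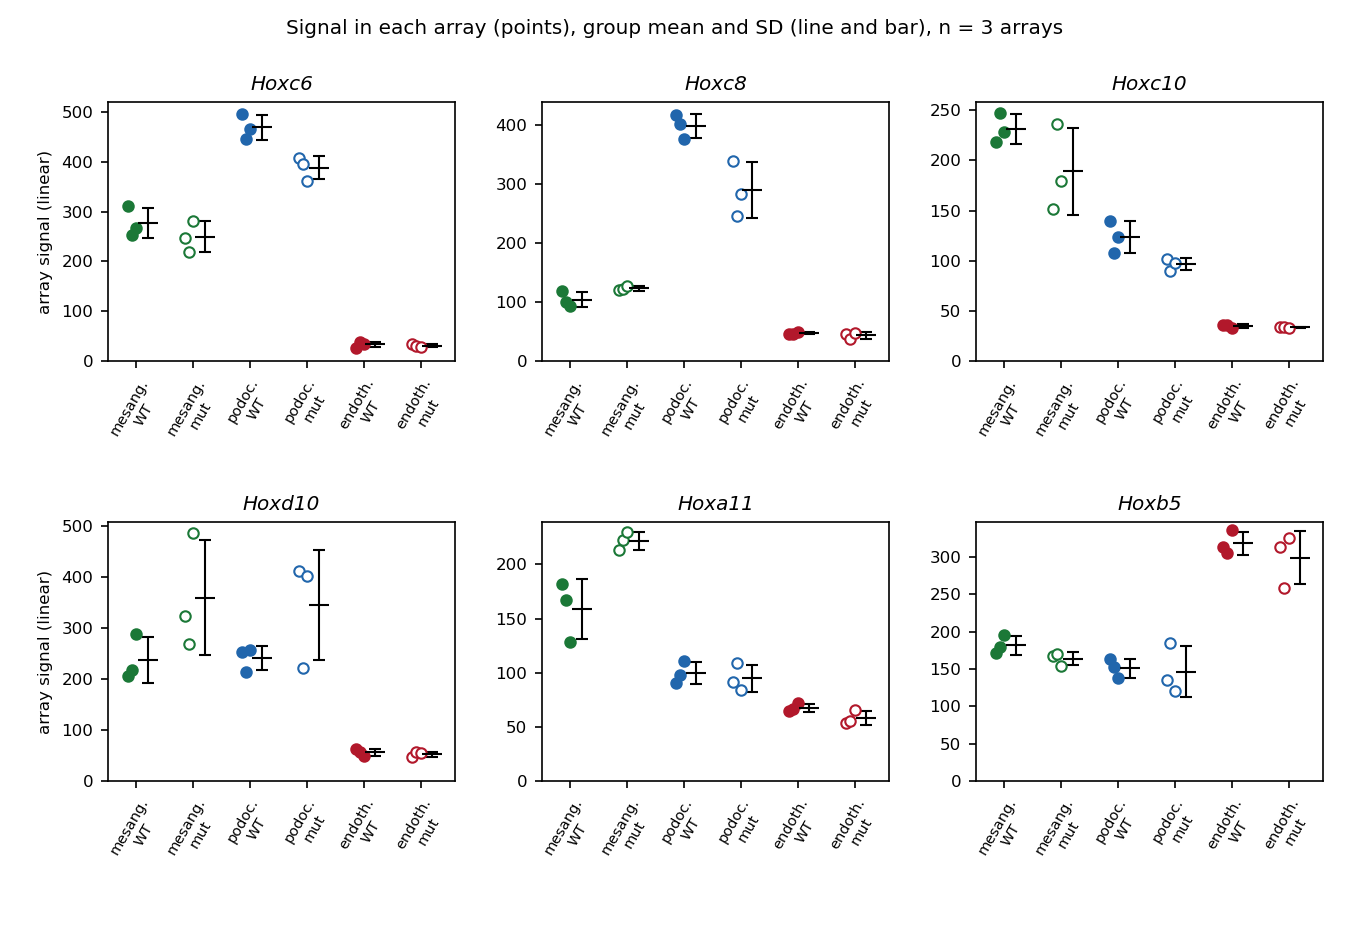
Linear array signal of 6 Hox genes in each array (points; wild type filled, mutant open), with group mean and SD (line and bar, n = 3), for mesangial (green), podocyte (blue) and endothelial (red) groups. Hoxc6, Hoxc8, Hoxc10, Hoxd10 and Hoxa11 are lowest in the endothelial groups, Hoxc8 is highest in podocytes, Hoxc10 and Hoxa11 in mesangial cells and Hoxb5 in endothelial cells.

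Hoxb5 was the 1 member higher in endothelial cells. Hoxb5, which is known to act in endothelial precursors and marks blood stem cells, was 171, 179 and 195 and 167, 169.9 and 154 in wild type and mutant mesangial arrays, 163, 152 and 138 and 135, 184 and 120.1 in podocyte arrays, and 313, 305 and 335 and 313, 258 and 325 in endothelial arrays. All 6 endothelial arrays exceeded all 12 others. The endothelial minus mesangial difference was 0.81 (SE 0.10, adjusted p = 1.89e-04) in wild type and 0.87 (SE 0.17, adjusted p = 0.00365) in mutant arrays. Its neighbours in the cluster did not follow it to a call, with wild type differences of 0.12 for Hoxb4 (95% interval -0.21 to 0.45), 0.33 for Hoxb6 (adjusted p = 0.0402, fold 1.26), 0.01 for Hoxb3 (-0.24 to 0.26) and 0.20 for Hoxb7 (0.00 to 0.39). Hoxb1, the hindbrain gene at the other end, was 95.6 to 142 over all arrays.

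The wild type differences were also fitted without the mesangial array that carried other cells' markers. Leaving out wild type mesangial array C gave -3.06 for Hoxc6, -2.73 for Hoxc10, -1.91 for Hoxd10, -1.37 for Hoxa11 and 0.86 for Hoxb5. There were then 12 lower and 1 higher calls, Hoxd11 being the member no longer tested. The adjusted p of Hoxb6 became 0.0974. Of the 10 mesangial markers, 8 had means under 100 in both endothelial groups, Pdgfrb and Itga8 among them, while Meis1 was 144 to 194 and Serpine2 95.4 to 467 over the endothelial arrays.

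Podocytes set against endothelial cells gave a like picture, with the caution that this comparison and the previous one share the endothelial arrays. In wild type arrays 13 members were higher in podocytes, against 9.83% of the transcript clusters tested, and 2 were lower, against 11.6%. In mutant arrays the counts were 13 and 2, against 9.52% and 20.5%. Of the higher calls 12 were made in both genotypes, with Hoxd8 called in wild type and Hoxa11 in mutant arrays alone. The 2 lower members were Hoxb4 and Hoxb5 in both. Hoxa11 also passed in wild type arrays without endothelial array C (0.60) or podocyte array A (0.63). All 6 Hoxc genes that entered were higher in podocytes in both genotypes, but no endothelial array reached 100 for them, so their entry favoured a difference. The same holds for Hoxa9, Hoxa11, Hoxd10, Hoxd11 and the Hoxd3 and Hoxd4 cluster, for which no endothelial array reached 100 either. With no signal minimum the median podocyte minus endothelial difference was 1.34 over the 9 Hoxc genes, 0.73 over Hoxd, 0.11 over Hoxa and -0.09 over Hoxb in wild type arrays, beside -0.01 over all transcript clusters, and 1.43, 0.56, 0.17 and -0.11 in mutant arrays, beside 0.07. Hoxc6 showed a log2 difference of 3.80 (SE 0.13, adjusted p = 8.36e-08) in wild type and 3.62 (adjusted p = 6.18e-08) in mutant arrays, and Hoxc8 of 3.07 (SE 0.10, adjusted p = 6.94e-08) and 2.70 (adjusted p = 7.79e-07). With the endothelial level taken as 100, since no endothelial array reached it, podocyte Hoxc6 was at least 4.68-fold and 3.87-fold higher and Hoxc8 at least 3.98-fold and 2.87-fold (wild type first). Differences of the others called in wild type arrays lay between 0.71 for Hoxd11 and 2.09 for Hoxd10. Hoxa9 joined the calls here, at 0.89 (adjusted p = 6.66e-05) and 0.92 (adjusted p = 1.45e-04), its podocyte means being 163 ± 5.99 and 163 ± 11.8 and its endothelial means 88.1 ± 7.86 and 86 ± 3.13 (SD, n = 3, wild type first).

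Hoxb4, known for expanding blood stem cells, was 113, 132 and 102 and 116, 95.8 and 116 in wild type and mutant podocyte arrays, 169, 178 and 143 and 192, 174 and 162 in mesangial arrays, and 164, 213 and 158 and 199.9, 168 and 184 in endothelial arrays. Podocytes were low and did not overlap either of the other cell types. The podocyte minus endothelial difference was -0.62 (adjusted p = 0.00803) in wild type and -0.75 (adjusted p = 0.00112) in mutant arrays. The wild type value dropped under the fold minimum without endothelial array B (-0.49) or podocyte array C (-0.53). Hoxb5 differed by -1.08 (adjusted p = 2.88e-05) and -1.05 (adjusted p = 8.06e-04). For the mutant call of Hoxa11, 0.70 (adjusted p = 0.00189), subtracting array medians gave 0.58, under the minimum. That scaling lowered all podocyte minus endothelial differences in mutants by 0.13 and shifted no other comparison by over 0.1.

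Podocytes were compared with mesangial cells last. Wild type arrays gave 2 higher in podocytes, against 5.9% of the transcript clusters tested, and 2 lower, against 9.24%, out of 23 members. Mutant arrays gave 3 higher, against 6.35%, and 3 lower, against 12.1%, out of 26. As shares of the members tested these are 8.7% and 8.7% in wild type and 11.5% and 11.5% in mutant arrays, near the shares over all clusters. The widest gap, 11.5% beside 6.35% for the higher calls in mutants, stands for 3 members. Of these, Hoxc5 and Hoxc6 lost their call under other settings given below. In wild type arrays 30.4% of members had an adjusted p under 0.05, against 27.9% of all clusters. In mutant arrays 26.9% did, against 29%. Hoxc8 and Hoxc6 were the higher members and Hoxa11 and Hoxc10 the lower members in both genotypes, so members of the Hoxc cluster went opposite ways. Hoxc8 differed by 1.94 (SE 0.10, adjusted p = 8.93e-06) in wild type and 1.22 (SE 0.15, adjusted p = 2.70e-04) in mutant arrays, 3.83-fold and 2.32-fold. Hoxc6 differed by 0.76 (adjusted p = 0.00235) and 0.64 (adjusted p = 0.00448), the latter falling under 1.5-fold without mesangial mutant array B (0.55) and with array medians subtracted (0.55). Without wild type mesangial array C the wild type differences were 1.87 for Hoxc8 and 0.74 for Hoxc6.

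Hoxc10 differed between podocytes and mesangial cells by -0.91 (adjusted p = 2.55e-04) in wild type and -0.95 (adjusted p = 0.00162) in mutant arrays. Hoxa11 differed by -0.66 (adjusted p = 0.00618) and -1.23 (adjusted p = 1.18e-04), the wild type value being -0.56 without mesangial array A and -0.81 without array C. Hoxb4 at -0.69 (adjusted p = 0.00325) and Hoxc5 at 0.87 (adjusted p = 0.0231) were called in mutants alone. Hoxc5 rested on podocyte mutant array B, at 219 beside 104 and 115, and the difference was 0.54 without it. Without mesangial mutant array B (0.87) or C (0.80), its adjusted p was 0.0656 or 0.0755, and with no signal minimum it was 0.05003. Without mesangial array C or podocyte array B, Hoxb4 was called in wild type arrays too. The 5 Hoxd clusters had no call between these cell types in either genotype, with wild type differences of 0.03 for Hoxd10 (95% interval -0.30 to 0.36) and -0.28 for Hoxd9 (-0.55 to -0.01). In mutants Hoxd8 differed by -0.47 (adjusted p = 0.0586), and it was called lower without mesangial mutant array B (-0.59, adjusted p = 0.047).

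Mesangial markers were present in podocyte arrays, so the podocyte levels are also given for the array with least of them, a choice made after seeing the data. Mutant podocyte array C had a summed mesangial marker signal of 1370 and an endothelial one of 966, where mutant podocyte array A had 3664 and 2858. Array B had 3406 and 1353. Over arrays A, B and C, Hoxc6 was 406, 395 and 362, Hoxc8 339, 246 and 283, Hoxc9 242, 283 and 213 and Hoxc10 102, 90.3 and 97.4. Hoxd10 was 413, 221 and 403 and Hoxa10 208, 207 and 201. Hoxc4 was 112, 98 and 77.1 and Hoxd8 189.7, 181 and 138. Of these 8 members, Hoxc4, Hoxc6, Hoxc9, Hoxd8 and Hoxa10 were lowest in array C. Among other members, Hoxa9 (152, 163 and 175), Hoxd9 (164, 153 and 170) and Hoxd11 (118, 99 and 212) were highest in array C.

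The Cd2ap genotype was then compared within each cell type, mutant against wild type, with a screen of an unadjusted limma p under 0.05 and a fold over 1.5. The methods name a moderated test with a p threshold and do not say whether it was adjusted. No Hox member passed the screen in any of the 3 cell types: 0 of 25 tested in mesangial cells, 0 of 24 in podocytes and 0 of 13 in endothelial cells. Over all transcript clusters the screen called 2.08% higher and 3.12% lower in mutant mesangial cells, 1.26% and 4.34% in podocytes, and 2.96% and 0.865% in endothelial cells. None had an adjusted p under 0.05 either, where 2.92%, 0.0578% and 1.29% of all clusters did. An unadjusted p under 0.05 was reached by 6, 2 and 1 members, against 21.7%, 14.3% and 18.5% of all clusters. limma with an intensity trend and robust variance also gave 0 members past the screen in each cell type.

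Mutant and wild type mesangial arrays did not overlap for 7 members above and 2 below, against 12.3% and 16.3% of all clusters tested. In podocytes the counts were 1 and 4, against 6.97% and 14.3%, and in endothelial cells 2 and 1, against 17.7% and 7.34%. Over the 25 members in mesangial cells the 95% intervals of the log2 difference reached from -0.70 to 1.13, over the 24 in podocytes from -0.82 to 1.11, and over the 13 in endothelial cells from -0.75 to 0.85, so for some members a 1.5-fold change lies inside the interval.

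**Figure D4:**
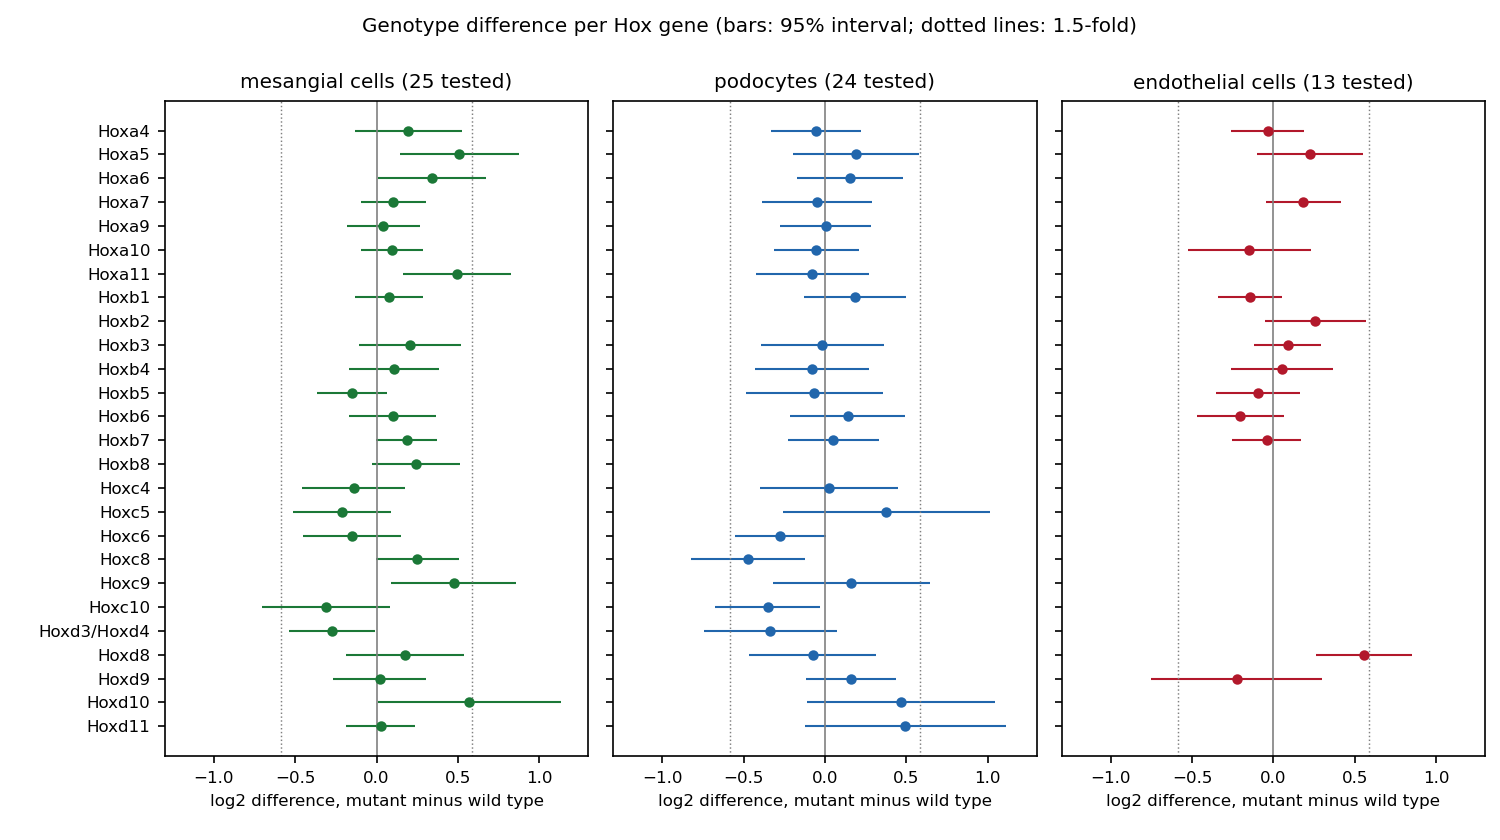
Log2 difference, mutant minus wild type (horizontal axis), of each Hox member that entered the fit (rows), in mesangial cells, podocytes and endothelial cells, with 95% intervals; dotted lines mark 1.5-fold either way. No point lies past a dotted line, and Hoxd10 in mesangial cells, at 0.57, and Hoxd8 in endothelial cells, at 0.56, come nearest.

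Among mesangial cells Hoxa11 gave the smallest adjusted p, with mutant arrays at 213, 222 and 229.9 above wild type arrays at 182, 167 and 128 and a log2 difference of 0.49 (95% interval 0.16 to 0.82, limma adjusted p = 0.113). Hoxa5, which is needed for the lung and airway, was 194, 153 and 158 in mutant and 143, 106 and 107 in wild type arrays, again without overlap, a difference of 0.51 (limma adjusted p = 0.133). Hoxc9 differed by 0.48 (adjusted p = 0.161), Hoxa6 by 0.34 (adjusted p = 0.225), Hoxd10 by 0.57 with overlapping arrays (adjusted p = 0.227) and the Hoxd3 and Hoxd4 cluster by -0.27 (adjusted p = 0.219). Mesangial markers summed to 8641 to 9501 in the mutant and 11081 to 12286 in the wild type mesangial arrays. Endothelial markers summed to 2500 to 2799 in mutant arrays and to 8144 in wild type array C, against 2671 and 3087 in the other wild type arrays. Of 10 markers of each type, 2 mesangial, 2 endothelial and 1 podocyte marker passed the screen as lower in mutants. Juxtaglomerular and smooth muscle markers summed to 1592 to 2892 in mutant and 1326 to 1609 in wild type mesangial arrays, with 2 of 5 past the screen as higher, and leukocyte markers to 1998 in mutant array B against 528 and 457 in the other mutant arrays and to 475, 355 and 1311 in wild type arrays A, B and C. Tubule markers summed to 438 to 442 in mutant and 425, 401 and 1016 in wild type arrays. Podocyte markers summed to 968 to 1035 in mutant and 1070, 1222 and 4199 in wild type arrays A, B and C, and erythroid markers to 176 to 361 against 271 to 7227. The part of these cells was not tested. Without array C the differences were 0.35 for Hoxa11, 0.44 for Hoxa5, 0.32 for Hoxc9, 0.21 for Hoxa6 and 0.72 for Hoxd10, the last of which then passed the screen (adjusted p = 0.186). Hoxd10 also passed it without mesangial mutant array B (0.76), and Hoxa5 (0.65) and Hoxa11 (0.60) passed it without wild type array A.

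In podocytes Hoxc8 was lower in mutants, at 339, 246 and 283 against 417, 402 and 376.8, with no overlap and a difference of -0.47 (95% interval -0.82 to -0.12, limma adjusted p = 0.234). Without mutant podocyte array A it was -0.59 and passed the screen. Leaving out mutant podocyte array B let Hoxd10 (0.76) and Hoxd11 (0.72) pass it as higher in mutants. Hoxc10 differed by -0.35 (adjusted p = 0.325) and Hoxc6 by -0.28 (adjusted p = 0.355), also with mutants below. The same arrays differed in other cells' markers, since mesangial markers summed to 1370 to 3664 in mutant and 3855 to 4804 in wild type podocyte arrays. Endothelial markers summed to 966 to 2858 against 4648 to 6133, with 8 of 10 past the screen as lower, and juxtaglomerular and smooth muscle markers to 1022 to 2970 against 766 to 783, with 2 of 4 tested past it as higher. Erythroid markers summed to 5377, 692 and 202 in mutant arrays A, B and C and to 2962 to 3963 in wild type podocyte arrays. The part of these cells in the Hox differences was not tested.

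Endothelial Hoxd8 was 152, 139 and 146 in mutant and 109, 81.7 and 108 in wild type arrays, above without overlap, a difference of 0.56 (95% interval 0.26 to 0.85, limma adjusted p = 0.0905), or 1.47-fold. It passed the screen without endothelial mutant array B (0.59), wild type array A (0.63) or wild type array C (0.62), and with array medians subtracted (0.63). Mesangial markers summed to 913 to 1198 in the mutant and 837 to 879 in the wild type endothelial arrays, with Serpine2 the 1 of 3 tested past the screen, and leukocyte markers to 485 to 1141 against 435 to 578. The part of these cells was not tested. Hoxb5, the member higher in endothelial cells, was 313, 258 and 325 in mutant and 313, 305 and 335 in wild type endothelial arrays, with a difference of -0.09 (95% interval -0.35 to 0.16). Whether the genotype effect differed between cell types was tested by interaction contrasts over all 18 arrays. Of 26 members, 0 had an adjusted p under 0.05 in any of the 3 contrasts (podocyte against mesangial, endothelial against mesangial and podocyte against endothelial effects), where 0.717%, 1.07% and 2.11% of all 13523 clusters did. An unadjusted p under 0.05 was reached by 2, 3 and 3 members, against 12%, 15.9% and 23.4% of all clusters. The smallest adjusted p values were 0.0829 for Hoxc8 between podocytes and mesangial cells and 0.083 for Hoxa11 between endothelial and mesangial cells.

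The TALE cofactors were read on 9 array clusters, of which 7 entered the wild type fit, with a median endothelial minus mesangial difference of 0.19 beside 0.01 over all clusters tested. Meis2 was 1757, 1989 and 1875 in wild type endothelial arrays, 558, 610.1 and 852 in mesangial and 535, 684 and 527 in podocyte arrays, an endothelial minus mesangial difference of 1.499 (adjusted p = 1.13e-04), while Pbx2 was lower in endothelial cells (-0.77, adjusted p = 0.00241). In mutant arrays Meis2 (1.39) was again higher in endothelial cells, and Meis1 (-0.68) and Meis3 (-0.66) lower. Pbx2 was higher in podocytes than in mesangial cells, by 1.04 in wild type (adjusted p = 4.63e-04) and 1.11 in mutant arrays (adjusted p = 2.11e-04). Between genotypes Meis1 and Meis2 passed the screen in podocytes, with differences of -0.60 and -1.47 and adjusted p of 0.204 and 0.143. Endothelial markers summed to 966 to 2858 in mutant and 4648 to 6133 in wild type podocyte arrays beside them, and their part was not tested.

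Of 20 chromatin regulators of the Polycomb and trithorax groups, all of which entered the wild type fit, 1 was higher and 0 lower in endothelial than in mesangial cells, where 7.91% and 9.58% of all clusters were, and their median difference was 0.00. In mutant arrays 2 were higher and 0 lower, against 10.2% and 7.11%. The wild type call was Jarid2, a Polycomb cofactor, at 0.79 (adjusted p = 0.00171). Between podocytes and endothelial cells 0 were higher and 1 lower in wild type arrays, against 9.83% and 11.6% of all clusters, and 1 higher and 4 lower in mutant arrays, against 9.52% and 20.5%. Ezh2, the Polycomb methyltransferase, was lower in podocytes at -0.93 (adjusted p = 0.00187) in wild type and -1.32 (adjusted p = 0.00285) in mutant arrays. The 8 ParaHox and Evx genes, relatives of the Hox genes that lie beside or apart from the clusters, were under 100 in every array and none was tested.

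Transcripts inside the clusters were read where the array carries them. Hoxd3os1, the RNA antisense to Hoxd3, was 229.8, 189 and 188 in wild type mesangial, 188, 232 and 187 in podocyte and 135, 130.4 and 108 in endothelial arrays, a difference of -0.70 between endothelial and mesangial cells (adjusted p = 0.00291) and of -0.82 (adjusted p = 0.00658) in mutants, in the direction of its Hoxd neighbours. A second cluster that carries its name and that of Hoxd3 stayed between 41.1 and 66.6 in all 18 arrays. The probe sets named for the precursors of Mir10a, Mir10b and the 3 Mir196 genes were under 100 in every array. So was Hoxaas2 (53.2 to 67.8), added after the data were seen and read on a cluster that also carries the name Hoxa3. The probe set of Mir615, a microRNA gene in the Hoxc cluster, was 114 to 140.1 over the mesangial, 133 to 232 over the podocyte and 115 to 143 over the endothelial arrays. Genes that flank the clusters gave 1 higher and 2 lower calls of 7 tested between wild type endothelial and mesangial cells, against 7.91% and 9.58% of all clusters, and 1 higher and 1 lower in mutant arrays, against 10.2% and 7.11%. In wild type arrays Skap2 beside Hoxa was higher at 1.05, and Mtx2 beside Hoxd and Cbx5 near Hoxc were lower at -0.69 and -1.20.

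The nephrogenic regulators that work with Hox11 proteins in the embryo were under 100 in every mesangial and endothelial array for 9 of 10 genes, Foxd1 being the other. Eya1, Six2 and Gdnf were under 100 in all 18 arrays, including the mesangial arrays where Hoxa11 was between 128 and 230. Eya1 was nevertheless 68.5 to 99 over the podocyte arrays, above its 35.3 to 47 over the mesangial and 35 to 41.3 over the endothelial arrays. Pax8, Sall1 and Foxd1 entered the fit through podocytes, where Foxd1 was 1113, 986 and 1013 in wild type arrays. Foxd1 was also 155 in wild type mesangial array C, which carried podocyte markers, and at most 51.4 in the other 5 mesangial arrays.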

How the data were processed

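RNA of FACS-sorted glomerular cells was amplified once by Ribo-SPIA and hybridised to Affymetrix Mouse Gene ST arrays, 1 array per sample. The authors deposited RMA intensity values per transcript cluster on a linear scale, which RMA had already background-corrected, quantile-normalised and summarised over probes, with annotation na32 on build mm9 per the file headers. This brings all arrays to nearly the same distribution, with medians of 62.8 to 71.6 and 9697 to 10097 transcript clusters at 100 or above. The series text names another array type and program than the file header and the methods do, and the header was followed. Another 18 columns of normalised values were not used.

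Columns were assigned to groups by the genotype and reporter in their names. Log2 signals were fitted with limma 3.58.1 in R 4.3.3 (lmFit, eBayes): 9 arrays, mutant or control, for cell types, 6 arrays of 1 cell type for genotype, 18 arrays for interactions. A transcript cluster was tested if any array of the fit reached 100. Cell type calls needed a Benjamini-Hochberg adjusted p under 0.05 over all clusters tested and a fold over 1.5, and the genotype screen, patterned on the methods, which do not state an adjustment, an unadjusted p under 0.05 with that fold. Adjusted p-values are limma's throughout. The scripts were tested on simulated data. Every Hox member with a group mean of 100 or more, or called in a comparison, was named with values. A few genes of these sets are not reported here. The members and lists were chosen with earlier results of these data known. Lists of cofactors, chromatin regulators, ParaHox, nephrogenic, cluster RNA, flanking and marker genes held 126 entries, of which 118 were on the array, counting a gene under 2 names once; Hotair, Hottip, Hotairm1, Hoxa11as, Haglr, Hoxb3os, Hoxb5os and Hoxaas3 were not analysed here. Probes of paralogs and of overlapping or antisense transcripts can share signal. Promoter sequences are from RefSeq on GRCm38.p6 and no coordinates of the array's build were mixed with them. Array values carry no read depth, and the number of arrays limits their precision. Figures were drawn with matplotlib 3.10.9 in Python 3.11.15.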

Additional observations from a re-analysis of the deposited data

Results flagged for a closer look

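For Hoxc8 the mutant arrays all lay above the wild type arrays in mesangial cells and all below them in podocytes, and neither difference passed its test. In mesangial arrays it was 120.3, 123 and 128 in mutants against 119, 100.4 and 94.1 in wild type, a log2 difference of 0.25 (limma adjusted p = 0.239). In podocyte arrays it was 339, 246 and 283 against 417, 402 and 376.8, a difference of -0.47 (limma adjusted p = 0.234). The difference between the 2 effects was -0.72 (95% interval -1.10 to -0.35) by the interaction contrast, with an adjusted p of 0.0829 over 13523 transcript clusters, which misses the threshold. Hoxc8 was picked for this pattern in these same arrays, so the contrast is not separate evidence for it. Of all clusters tested, 12.3% lay above without overlap in mutant mesangial cells and 14.3% below in mutant podocytes. The share with both was not counted. In mesangial cells the lowest mutant array (120.3) and the highest wild type array (119) nearly touch. Without wild type mesangial array C, which carried other cells' markers, the mesangial difference was 0.18 (limma adjusted p = 0.433).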

How the results depend on the processing

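No paired analysis was possible because the replicate numbers in the labels run from 1 to 18 and no groups share one. Of 162 counts of Hox members recomputed under the other settings, all arrays kept, 149 stayed within 1.5 times the reported count, and of 144 with 1 array left out, 132 did. Of 1287 recomputed differences of the single members carried through these settings, 0 changed sign. Many of the settings alter which clusters are tested, the variance or the threshold, and leave the difference as it was. The members carried through were also those already called or, between genotypes, at an unadjusted limma p under 0.05. The 0 was thus largely fixed in advance and is no check on direction. A minimum of 200, under which fewer members are tested, gave 8 lower in wild type endothelial than mesangial cells, 8 higher in wild type podocytes than endothelial cells, 1 lower in wild type podocytes than mesangial cells and 1 lower in mutant podocytes than endothelial cells. With 100 required in all 3 arrays of a group, Hoxc4, Hoxc5 and Hoxd11 lost their calls in both wild type comparisons with endothelial cells. In mutants Hoxc4 lost both, and Hoxd11 lost that between podocytes and endothelial cells. Without the fold minimum, 3 were higher in wild type endothelial than mesangial cells and 4 higher in wild type podocytes than mesangial cells, and between genotypes 5 were higher and 1 lower in mesangial cells, 2 lower in podocytes and 1 higher in endothelial cells. Quantile normalization over 18 arrays let 1 member (Hoxd10) pass the genotype screen as higher in mesangial cells and 1 in podocytes, and subtracting array medians let 1 (Hoxd8) pass in endothelial cells; the cause was not tested. Fits without 1 array gave 1 to 3 lower and 2 higher in wild type podocytes than mesangial cells, 1 to 2 lower in wild type podocytes than endothelial cells, 1 to 3 higher in mutant podocytes than mesangial cells, and genotype screens of 0 to 2 higher in mesangial cells, 0 to 2 higher and 0 to 1 lower in podocytes and 0 to 1 higher in endothelial cells. For the endothelial minus mesangial counts this gave 12 to 13 lower in wild type and 10 to 12 lower in mutant arrays. Where leaving out an array left a group of 2, the spread was pooled with the other groups of the fit.

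Limits are few arrays per group, amplified RNA from sorted cells that carried other cells' markers, and signals near the array's lower range for many Hox genes.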
